A study of Mus musculus with 165 samples.

Results

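The genes described here encode proteins of the extracellular matrix other than collagens, or proteins that fold, cross-link or protect it. They are Sparc, Serpinh1, Tnc, Fn1, Vcan, Bgn, Dcn, Lum, Timp1 and Lox, chosen by symbol as the rows of both count tables whose Ensembl identifier maps to these names. All 10 were found among 55471 rows in each table. The samples were brains and livers of male mice of the inbred strain C57BL/6J/Ukj, sequenced as bulk polyadenylated RNA at 3, 9, 15, 24 and 28 months of age. No genotype, treatment or surgery is named in the labels, so the groups differ by age and tissue only, and the animals are described as having been kept for aging alone. The brain gave 15, 16, 16, 17 and 18 libraries at the 5 ages and the liver 16, 16, 16, 17 and 18, each from a different mouse within its tissue. Every library belonged to 1 of 3 library preparations (preps), and each prep held all ages of both tissues.

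The extracellular matrix is a mesh of fibrillar collagens, adhesive glycoproteins and proteoglycans that surrounds cells. Collagen chains need a chaperone in the endoplasmic reticulum (the product of Serpinh1) and are cross-linked outside the cell by lysyl oxidase (Lox). Small leucine-rich proteoglycans (Dcn, Bgn, Lum) coat the fibrils, while matricellular proteins (Sparc, Tnc) change how cells attach to them, and Timp1 restrains the metalloproteinases that degrade the mesh. In the liver most fibril-forming matrix comes from stellate cells and portal fibroblasts, and hepatocytes secrete plasma fibronectin. In the brain fibrillar matrix is scarce outside the meninges and vessels, and hyaluronan-binding proteoglycans such as versican fill the space between cells.

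Library totals ran from 11.5 to 73.4 M counts (M, mega) in the brain and from 5.82 to 57.5 M counts for the livers. The neuronal markers Snap25, Rbfox3, Syt1 and Stmn2 summed to at least 3741 CPM (the count scaled to a fixed library total, here the TMM-adjusted one) in every 3-month brain, and the hepatocyte markers Alb, Apoa1, Tat, Cps1 and Cyp3a11 to at least 52590 CPM in every 3-month liver. The lowest sums at 28 months were smaller, 2036 CPM among the brains and 19910 CPM among the livers, while the medians were 4378 and 93980 CPM against 4342 and 85260 CPM at 3 months. In brains the hepatocyte markers summed to at most 1.29 CPM at 3 months and 22.99 CPM at 28 months. The brain libraries of 28 months, replicate 15, and 24 months, replicate 13, stood apart, with median Spearman correlations to the other brains of 0.866 and 0.953 against 0.983 or more for all others. The first of these was also the shallowest brain library. In the liver the libraries of 24 months, replicate 13 (0.919), and 28 months, replicate 9 (0.930), were lowest, with 0.942 or more for all others. Among the 16 livers of 3 months, replicate 12 held the highest value of 9 of the 10 genes, all but Fn1. Among the 18 livers of 28 months, replicate 14 held the highest value of 7 genes. Without the 2 least similar livers the same 7 and 9 genes were called at 24 and 28 against 3 months in the liver. Called changes from 3 to 24 or 28 months that leaving out 1 library moved by over 1.5 times, or no longer called, have that library named beside them.

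All 10 are protein-coding in GENCODE M21 on GRCm38.p6, the build named in the submitters' processing notes. Sparc lies at chr11:55394500-55423183, Serpinh1 at chr7:99345376-99353239, Tnc at chr4:63959785-64047015, Fn1 at chr1:71585520-71653200 and Vcan at chr13:89655312-89742509, all on the minus strand. Bgn at chrX:73483602-73495933, Timp1 at chrX:20870166-20874735, Dcn at chr10:97479609-97518143 and Lum at chr10:97565128-97572703 lie on the plus strand. Dcn and Lum are neighbours on chromosome 10. Exons of Tnc (176 bases), Fn1 (292 bases) and Lox (30 bases) overlap a gene on the opposite strand. Whether the counting used the strand is not stated in the sources used here, so a few of their counts could come from the partner. The tables hold 1 count per gene, so a value is for the whole gene and not an isoform.

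RefSeq promoter sequences on GRCm38.p6 were available here for 6 of the genes. The 250 bases before the annotated start are shown for Serpinh1 and Timp1, which changed in the same direction in brain and liver, for Tnc, which changed in opposite directions, and for Vcan, which changed in the liver alone. Capitals mark the GC box GGGCGG (read on either strand, so also CCGCCC) and the TATA box TATAAA. The windows are chr7:99353240-99353489 on the minus strand for Serpinh1, chrX:20869916-20870165 on the plus strand for Timp1, chr4:64047016-64047265 on the minus strand for Tnc and chr13:89742513-89742762 on the minus strand for Vcan.
Serpinh1: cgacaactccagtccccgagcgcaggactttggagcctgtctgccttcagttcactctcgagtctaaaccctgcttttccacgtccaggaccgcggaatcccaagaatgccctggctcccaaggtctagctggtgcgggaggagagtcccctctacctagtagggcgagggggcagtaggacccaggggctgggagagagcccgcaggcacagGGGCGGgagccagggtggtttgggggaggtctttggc
Timp1: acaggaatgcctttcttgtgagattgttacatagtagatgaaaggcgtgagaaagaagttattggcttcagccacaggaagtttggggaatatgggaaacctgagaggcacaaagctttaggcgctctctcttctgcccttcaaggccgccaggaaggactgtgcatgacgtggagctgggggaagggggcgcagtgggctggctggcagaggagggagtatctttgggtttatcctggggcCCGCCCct
Tnc: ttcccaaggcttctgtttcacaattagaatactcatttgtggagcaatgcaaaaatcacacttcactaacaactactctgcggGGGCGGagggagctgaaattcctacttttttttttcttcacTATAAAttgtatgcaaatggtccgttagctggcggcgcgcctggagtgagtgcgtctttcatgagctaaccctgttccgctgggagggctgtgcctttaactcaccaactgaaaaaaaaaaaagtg
Vcan: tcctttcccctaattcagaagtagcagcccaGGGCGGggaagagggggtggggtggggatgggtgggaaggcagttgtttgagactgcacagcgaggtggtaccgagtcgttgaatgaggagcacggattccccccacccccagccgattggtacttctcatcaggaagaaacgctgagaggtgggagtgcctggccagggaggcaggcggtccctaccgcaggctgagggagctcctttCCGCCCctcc

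A GC box was found 1 time in the windows of Serpinh1, Timp1 and Tnc, 2 times in that of Vcan and 3 times in that of Bgn, and in 32.7% of 32851 RefSeq promoter windows of the same length. The Tnc window also held TATAAA, found in 12.4% of all windows. A further annotated start of Tnc has its window at chr4:64046937-64047186, which is not shown. It overlaps the window above and holds the same GC box and TATAAA. The letters TGAGTCA or TGACTCA, the AP-1 site, and GAANNTTC or TTCNNGAA, a core of the heat shock element, were in none of the 6 genes' windows, and in 4.46% and 12.8% of all windows. Both strands were searched, and these matches describe the letters only.

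At 3 months the order of the genes by TPM, a transcript share that corrects for gene length, differed between the tissues. In the brain Sparc stood first at 273 ± 37.1 TPM (SD, n = 15), then Dcn (35.4 ± 11.7), Serpinh1 (34.3 ± 8.12) and Fn1 (25.8 ± 5.58), which overlapped each other within their SDs but were apart from Sparc above and Bgn below. Bgn (12.4 ± 2.69), Lum (7.73 ± 2.60) and Vcan (6.37 ± 0.679) followed, with Lum within the spread of both its neighbours and Bgn apart from Vcan, then Tnc (4.13 ± 0.842). Timp1 (0.694 ± 0.370) and Lox (0.621 ± 0.283) were lowest in TPM. In the liver Fn1 stood first at 324 ± 91.2 TPM (n = 16), then Dcn at 71.2 ± 8.10, then Sparc (49.9 ± 9.58) and Bgn (39.2 ± 9.55) within their spread, Serpinh1 (21.3 ± 6.49) and Lum (10.4 ± 3.41). Timp1 (0.646 ± 1.17), Tnc (0.516 ± 0.332), Lox (0.268 ± 0.258) and Vcan (0.0550 ± 0.132) were all under 1 TPM in the mean and did not separate beyond their spread. A brain versican level near that of lumican stood against a liver level at the edge of detection.

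The tissues were compared at 3 months in a joint fit of brain and liver, as a mean over the 3 preps. Of all 20328 genes, 92.1% passed an adjusted p of 0.05, 51.7% above and 40.5% below the liver, so a call says little by itself. Of the 10 genes, 9 passed. Vcan, the hyaluronan-binding proteoglycan, was higher in the brain by 5.62 ± 0.39 on the log2 scale (SE), Tnc by 1.65 ± 0.18 and Sparc by 1.06 ± 0.08. The other 6 were higher in the liver on this joint scale, with brain minus liver log2 differences of -5.05 for Fn1, -3.06 for Bgn, -2.39 for Dcn, -1.78 for Lum, -1.16 for Timp1 and -0.69 for Serpinh1. For Serpinh1 the direction depended on the scale. Scaled within each tissue its means were 21.97 CPM (brain) and 21.1 CPM (liver), and TPM was higher in the brain (34.3 against 21.3). The Timp1 value included liver replicate 12 at 1.56 CPM, where the next liver had 0.2875. Scaled within each tissue, the Timp1 medians were 0.177 CPM (brain) and 0.125 CPM (liver). The difference was not tested without that liver. Lox, at -0.07, did not pass (adjusted p = 0.81). The brains and livers came from the same mice, and with the mouse as a replicate block in the 3-month libraries 8 of the 9 genes that passed the filter on low counts there were called in the same direction, Lox again not (log2 difference -0.099, adjusted p = 0.764). Timp1 did not pass that filter.

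With age the genes moved apart in the brain and mostly together in the liver. From 3 to 28 months 5 of the 10 passed in the brain, where Sparc and Timp1 rose and Serpinh1, Tnc and Lum fell, beside 28.3% of 18711 genes tested. In the liver 9 of the 10 passed, 8 of them higher and only Serpinh1 lower, beside 61.9% of 15579 genes tested. By direction, 16.3% of all brain genes were called higher and 12% lower, and 31.9% of all liver genes higher and 30% lower. Over the 10 genes the median log2 fold change was -0.17 for brain and 0.63 for liver, against 0.01 over all genes in each tissue. Every gene that passed at 28 months had the same direction in each of the 3 preps fitted alone (5 of 5 in the brain, 9 of 9 in the liver).

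**Figure D1:**
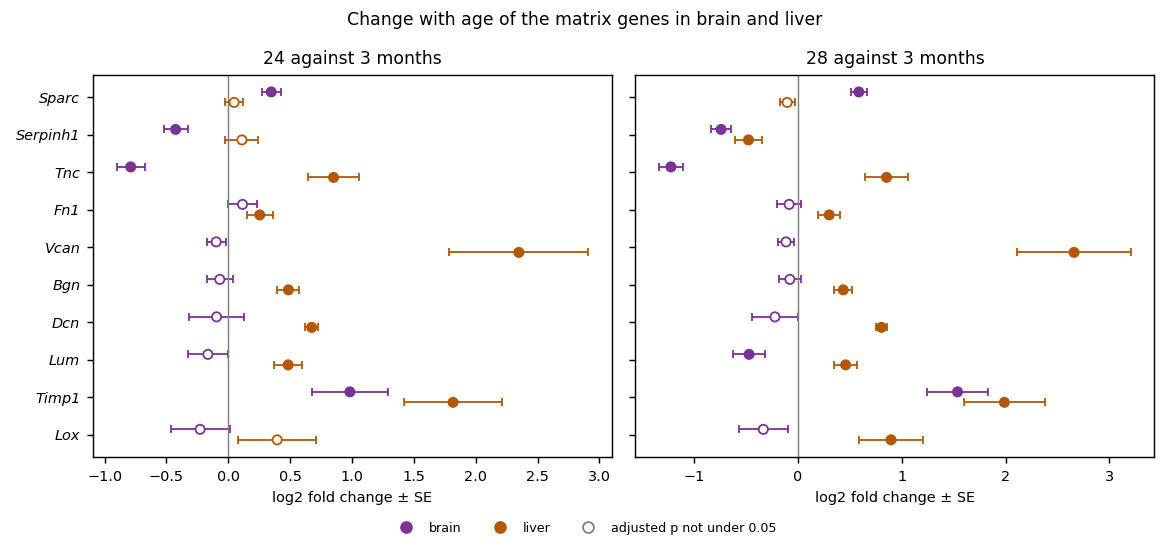
Log2 fold change with its standard error for each matrix gene, 24 against 3 months (left) and 28 against 3 months (right), in brain (purple) and liver (orange). Filled points passed an adjusted p of 0.05; at 28 months Tnc stood at -1.22 in the brain and 0.85 in the liver, and Vcan at -0.11 and 2.66.

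Calls at the other ages are given for each tissue by itself, and the difference between the tissues was tested only from 3 to 28 months. In the brain 1 gene passed at 9 months (Serpinh1, beside 0.315% of all genes), 1 at 15 months (Tnc, beside 0.871%) and 4 at 24 months (Sparc, Timp1, Serpinh1 and Tnc, beside 10.1%, of which 6.19% higher and 3.86% lower), each against 3 months. Between neighbouring ages in the brain none of the 10 passed from 9 to 15 months (0% of all genes) or from 15 to 24 months (0.732%), and only Tnc from 24 to 28 months (1.09%). For the first of these steps 0 of the 10 had an unadjusted p under 0.05 with edgeR, and 0 passed with DESeq2 or limma voom. For the second 3 had an unadjusted p under 0.05, 0 passed with DESeq2 and 1 with limma voom. In the liver none passed at 9 months (4.69% of all genes), with 1 under an unadjusted p of 0.05 in edgeR, 0 passing with DESeq2 and 1 with limma voom. Only Dcn passed at 15 months (7.32%), and 7 genes passed at 24 months (49%), all higher (25% of all genes were higher and 24% lower). The 7 were Tnc, Fn1, Vcan, Bgn, Dcn, Lum and Timp1, and the same 7 passed between 15 and 24 months (36%). From 9 to 15 months none passed (0.0514%), with 1 under an unadjusted p of 0.05 in edgeR and 0 passing with DESeq2 or limma voom. From 24 to 28 months only Serpinh1 did, lower (15.3%). Tested over all ages together, 4 genes passed in the brain (20.6% of all genes) and 9 in the liver (71.5%), the exception in the liver being Sparc. Lum, called in the brain at 28 against 3 months, was not called over all brain ages (adjusted p = 0.168).

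**Figure D2:**
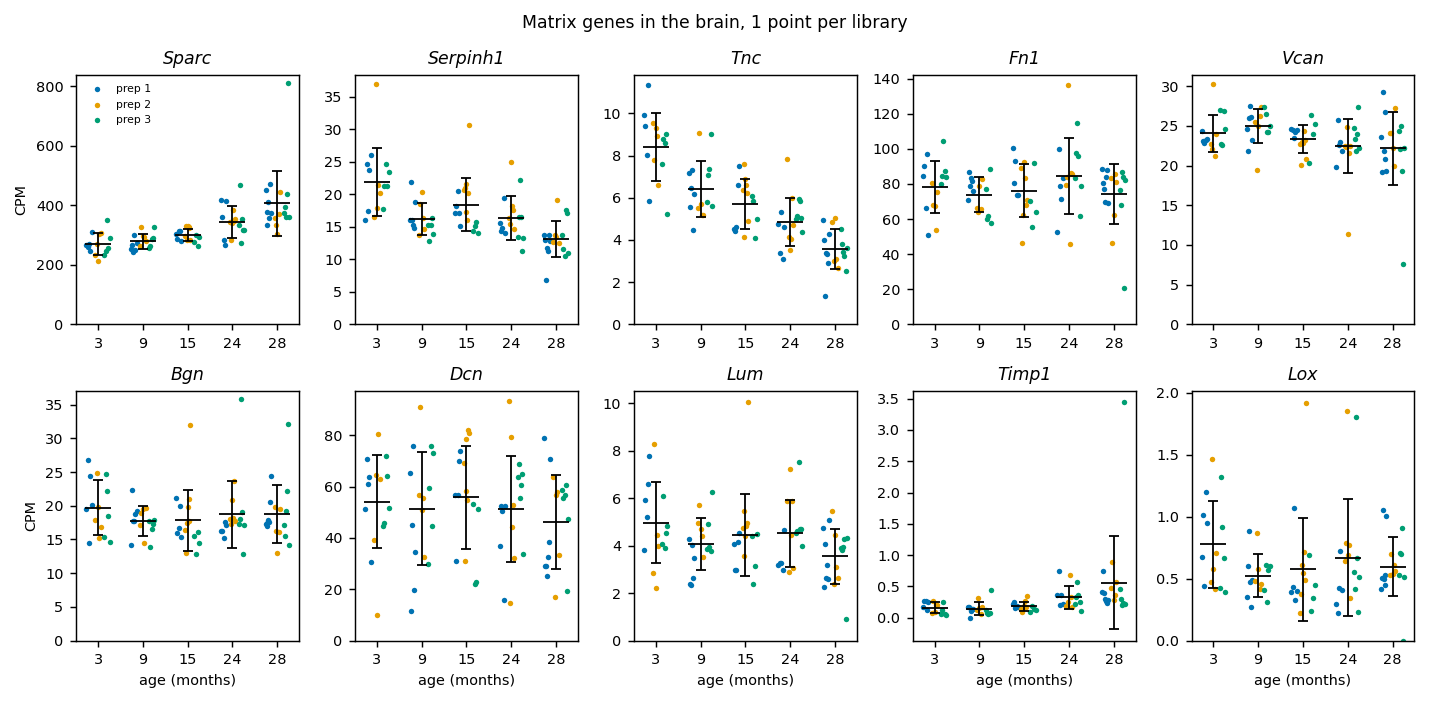
CPM of each matrix gene in every brain library by age in months, coloured by prep, with the mean and SD in black. Tnc falls from 8.39 ± 1.60 to 3.56 ± 0.95 with no overlap between 3 and 28 months, and the highest Sparc (809) and Timp1 (3.45) belong to the same 28-month library.

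Serpinh1, the collagen chaperone also called HSP47, was the only gene to fall in both tissues. In the brain it had a lowest, median and highest value of 16.1, 21.3 and 37.0 CPM at 3 months and of 6.82, 12.9 and 19.2 CPM at 28 months. All 18 brains of 28 months were below the 3-month median and 15 were below the lowest 3-month brain. Its log2 fold change was -0.74 ± 0.10 (adjusted p = 3.98e-09), and -0.86, -0.66 and -0.68 in preps 1, 2 and 3. The fall was already called at 9 months (-0.43 ± 0.10, adjusted p = 0.0203) and stood at -0.43 at 24 months, but at 15 months the value was -0.28 and not called (adjusted p = 0.252). The 9-month call was lost without the 3-month brain replicate 5, the highest of its age (-0.37, adjusted p = 0.0719).

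In the liver Serpinh1 had values of 14.5, 20.0 and 35.9 CPM at 3 months, 13.2, 20.6 and 34.3 at 24 months and 8.57, 12.8 and 25.4 at 28 months. The drop therefore lay between the last ages, where 11 of 18 livers of 28 months were below every 3-month liver. Its log2 fold change was -0.48 ± 0.13 against 3 months (adjusted p = 0.00134) and -0.59 ± 0.13 against 24 months (adjusted p = 0.000739). At 24 against 3 months it was 0.11, with a 95% interval from -0.15 to 0.37. The within-prep values at 28 months were -0.44, -0.29 and -0.69. Without the 3-month liver replicate 12 the value was -0.40.

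Lox, the copper enzyme that cross-links collagen and elastin, was low in both tissues. In the brain it had values of 0.392, 0.670 and 1.47 CPM at 3 months and 0, 0.533 and 1.05 at 28 months. These overlap almost entirely, and the log2 fold change of -0.33 (95% interval -0.80 to 0.13) did not pass. In the liver it had 0.194, 0.448 and 2.01 CPM at 3 months and 0.181, 0.577 and 4.71 at 28 months. It rose by 0.90 ± 0.31 (adjusted p = 0.0097), although 7 of 18 livers of 28 months were below the 3-month median. Without the 28-month replicate 14, its highest liver, the value was 0.55 and the call was lost (adjusted p = 0.10). Without both that liver and the 3-month replicate 12 it was 0.83 (adjusted p = 0.00881), and Lox was then also called at 24 months (0.70, adjusted p = 0.0325, against 0.40 and adjusted p = 0.307 with all livers). Within the preps none passed alone, at 0.82, 1.14 and 0.78.

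Sparc, a secreted glycoprotein that binds collagen and that glia and endothelium make in the brain, rose in the brain alone. Its lowest, median and highest brain values were 214, 266 and 352 CPM at 3 months, 266, 344 and 468 at 24 months and 305, 373 and 809 at 28 months. All 18 brains of 28 months were above the 3-month median and 15 were above the highest 3-month brain. The log2 fold change was 0.35 ± 0.08 at 24 months (adjusted p = 0.000864) and 0.59 ± 0.08 at 28 months (adjusted p = 3.78e-09). The prep values at 28 months were 0.55, 0.45 and 0.72. Without the 2 brains that stand apart it was 0.50 (adjusted p = 3.38e-10).

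In the liver Sparc had values of 54.0, 79.4 and 103 CPM at 3 months and 53.5, 70.2 and 104 at 28 months, which overlap throughout. Its log2 fold change was -0.10 (95% interval -0.25 to 0.04, adjusted p = 0.222). With limma voom and sample quality weights it was -0.24 and passed (adjusted p = 0.000316). The change in the brain exceeded that in the liver by 0.64 ± 0.10 on the log2 scale (adjusted p = 6.55e-08 for the interaction of tissue and age).

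Tnc, tenascin C, a large glycoprotein that loosens cell attachment and that astroglia make during development, moved in opposite directions. In the brain its lowest, median and highest values were 5.21, 8.77 and 11.3 CPM at 3 months, 4.11, 5.98 and 7.58 at 15 months, 3.08, 4.75 and 7.82 at 24 months and 1.36, 3.40 and 5.04 at 28 months. Every brain of 28 months was below every brain of 3 months. From 3 months the log2 fold change was -0.56 ± 0.12 at 15 months (adjusted p = 0.00241), -0.79 ± 0.12 at 24 months (adjusted p = 3.45e-07) and -1.22 ± 0.12 at 28 months (adjusted p = 4.36e-14). The step from 24 to 28 months (-0.43, adjusted p = 0.0323) was lost on leaving out any 1 of 8 brains, replicates 2, 7, 9, 10 and 14 of 24 months and 7, 12 and 17 of 28 months (highest adjusted p = 0.072).

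In the liver Tnc had values of 0.810, 1.52 and 4.62 CPM at 3 months, 1.60, 2.66 and 4.50 at 24 months and 1.02, 2.47 and 10.2 at 28 months. All 17 livers of 24 months and 13 of 18 of 28 months were above the 3-month median. It rose by 0.85 ± 0.21 at both ages (adjusted p = 0.000509 and 0.000249). The 28-month value was 0.62 without replicate 14 of that age and 1.05 without replicate 12 of 3 months, and 0.59, 1.03 and 1.02 in the preps. The interaction was -2.11 ± 0.24 (adjusted p = 1.64e-13), brain minus liver.

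Fn1, fibronectin, the adhesive glycoprotein that integrins bind, rose in the liver by a small amount from a high level. Its liver values were 1252, 1414 and 2935 CPM at 3 months, 1044, 1694 and 3554 at 24 months and 1339, 1912 and 2543 at 28 months. The groups overlap, but 17 of 18 livers of 28 months were above the 3-month median. The log2 fold change was 0.25 ± 0.11 at 24 months (adjusted p = 0.0383) and 0.30 ± 0.10 at 28 months (adjusted p = 0.00913). The 24-month call was lost on leaving out any 1 of 13 livers, replicates 1, 4, 5 and 6 of 24 months and 2, 3, 6, 8, 10, 11, 13, 14 and 16 of 3 months (lowest value 0.17, adjusted p = 0.15). The 28-month values in the preps were 0.03, 0.39 and 0.50.

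In the brain Fn1 had 50.7, 80.4 and 104 CPM at 3 months and 20.8, 80.8 and 88.7 at 28 months. The medians are nearly equal and the log2 fold change was -0.08 (95% interval -0.31 to 0.14). The lowest value came from the 28-month brain that stands apart.

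**Figure D3:**
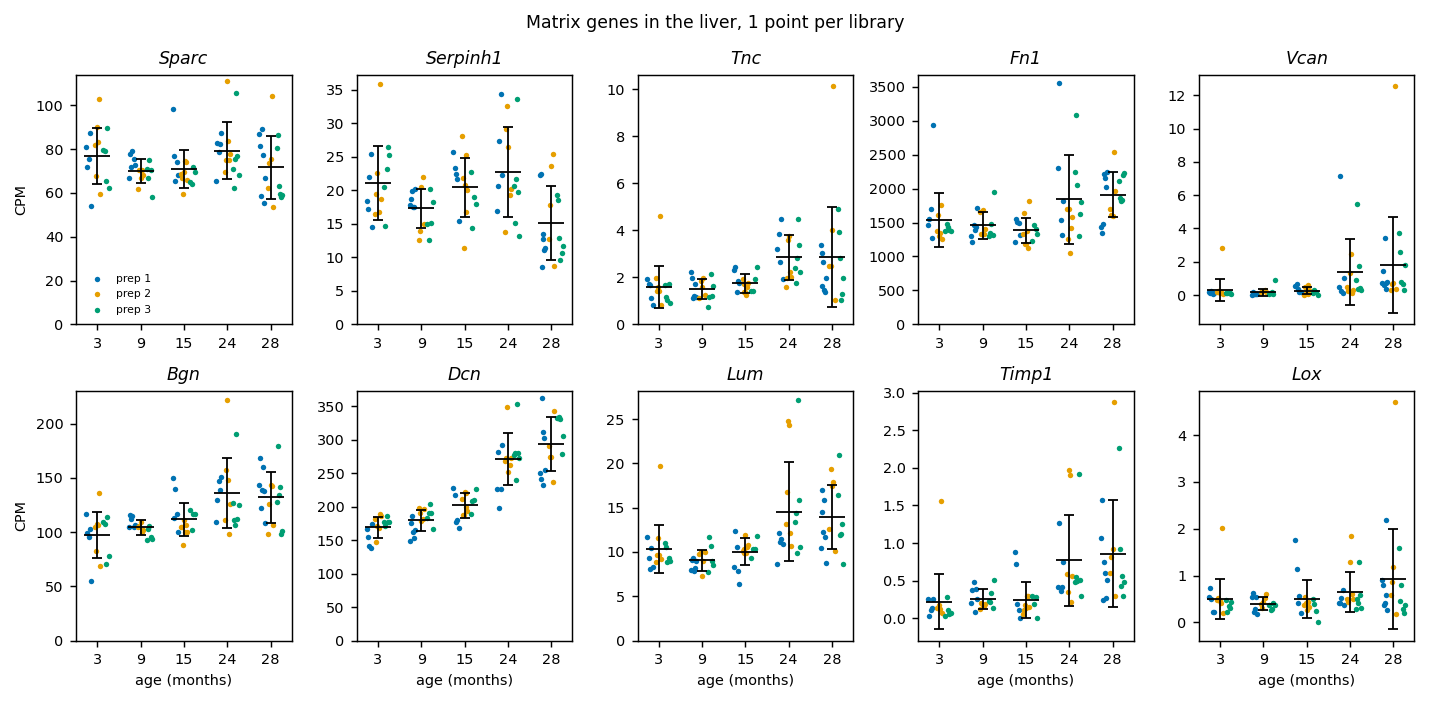
CPM of each matrix gene in every liver library by age in months, coloured by prep, with the mean and SD in black. Dcn rises from 169 ± 16.0 to 294 ± 40.2 with every 24-month and 28-month liver above every 3-month liver, while Vcan, Timp1 and Lox have a few high livers at each late age.

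Vcan, versican, showed a near-constant brain level and a scattered liver level. In the brain it had 21.2, 23.2 and 30.3 CPM at 3 months and 7.58, 22.2 and 29.2 at 28 months, with a log2 fold change of -0.11 (95% interval -0.26 to 0.03). The 2 brains that stand apart were the lowest of their ages. Without them the value was -0.06 (adjusted p = 0.321).

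In the liver Vcan had values of 0.0323, 0.129 and 2.82 CPM at 3 months, 0.107, 0.490 and 7.13 at 24 months and 0.293, 0.733 and 12.6 at 28 months. All 18 livers of 28 months were above the 3-month median, yet only 3 were above the highest 3-month liver, replicate 12. It rose by 2.35 ± 0.56 at 24 months (adjusted p = 0.00036) and by 2.66 ± 0.55 at 28 months (adjusted p = 2.15e-05), from a level at which 6 of 16 libraries of 3 months held 3 counts or fewer. The 28-month value was 1.92 without replicate 14 of that age, 3.76 without replicate 12 of 3 months and 3.03 without both. At 24 months it was 1.79 without replicate 5 of that age and 3.37 without replicate 12 of 3 months. The preps gave 3.60, 0.459 and 3.84 at 24 months, with prep 2 lowest and not called alone (adjusted p = 0.779), and 2.93, 2.27 and 3.95 at 28 months. The interaction, brain minus liver, was -2.76 ± 0.48 (adjusted p = 7.87e-07).

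Dcn, decorin, a small leucine-rich proteoglycan that coats collagen fibrils and binds TGF-beta, rose in the liver with the smallest standard error of the 10. Its lowest, median and highest liver values were 139, 173 and 189.9 CPM at 3 months, 149.5, 182 and 204.5 at 9 months, 168, 204 and 229 at 15 months, 198, 273 and 354 at 24 months and 233, 297 and 362 at 28 months. Every liver of 24 or 28 months was above every liver of 3 months. The log2 fold change was 0.26 ± 0.06 at 15 months (adjusted p = 0.000835), 0.67 ± 0.05 at 24 months (adjusted p = 2.96e-17) and 0.81 ± 0.05 at 28 months (adjusted p = 1.21e-21). Leaving out any 1 liver kept the 28-month value between 0.78 and 0.83, and the preps gave 0.83, 0.72 and 0.84.

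In the brain Dcn varied widely within each age, with 9.78, 60.9 and 80.4 CPM at 3 months and 17.1, 51.4 and 78.9 at 28 months. The groups overlap fully and the log2 fold change was -0.22 (95% interval -0.65 to 0.21). The interval is wide beside that of the liver (0.70 to 0.91), and the interaction, brain minus liver, was -1.06 ± 0.23 (adjusted p = 6.43e-05).

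Lum, lumican, a relative of decorin that spaces collagen fibrils, fell in the brain and rose in the liver. Its brain values were 2.20, 4.54 and 8.27 CPM at 3 months and 0.919, 3.85 and 5.45 at 28 months, and 15 of 18 brains of 28 months were below the 3-month median. The log2 fold change was -0.47 ± 0.16 (adjusted p = 0.0185), and -0.75, -0.27 and -0.36 in the preps. Without the 3-month brain replicate 15 the value was -0.39 and the call was lost (adjusted p = 0.051).

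In the liver Lum had values of 8.11, 9.45 and 19.7 CPM at 3 months, 8.63, 12.1 and 27.2 at 24 months and 8.60, 12.9 and 20.99 at 28 months. Of the late livers 16 of 17 and 16 of 18 were above the 3-month median. It rose by 0.48 ± 0.12 (adjusted p = 0.000322) and 0.46 ± 0.11 (adjusted p = 0.000328). The interaction at 28 months was -0.96 ± 0.20 (adjusted p = 2.04e-05), brain minus liver.

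Bgn, biglycan, a further relative of decorin, rose in the liver. Its liver values were 54.5, 104 and 136 CPM at 3 months, 98.3, 127 and 222 at 24 months and 97.9, 136 and 179 at 28 months, and 9 of 18 livers of 28 months were above the highest 3-month liver. It rose by 0.49 ± 0.09 at 24 months (adjusted p = 5.45e-06) and by 0.44 ± 0.09 at 28 months (adjusted p = 1.47e-05), and the preps gave 0.56, 0.29 and 0.44 at 28 months. In the brain it had 14.5, 19.6 and 26.7 CPM at 3 months and 13.0, 17.5 and 32.1 at 28 months. These overlap, and the log2 fold change was -0.08 (95% interval -0.28 to 0.13). The interaction was -0.56 ± 0.13 (adjusted p = 0.000321).

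Timp1, the inhibitor of metalloproteinases that is induced in reactive and inflamed tissue, rose in both tissues from a level near the floor. In the brain its lowest, median and highest values were 0.0436, 0.177 and 0.271 CPM at 3 months, 0.103, 0.258 and 0.738 at 24 months and 0.197, 0.336 and 3.45 at 28 months. All 18 brains of 28 months were above the 3-month median and 13 were above the highest 3-month brain. The log2 fold change was 0.98 ± 0.31 at 24 months (adjusted p = 0.0255) and 1.54 ± 0.30 at 28 months (adjusted p = 3.77e-05). The highest value came from the 28-month brain that stands apart. Without both brains that do so the 28-month value was 1.25 (adjusted p = 2.28e-05). The 24-month call was lost without replicate 5 of 24 months (0.84, adjusted p = 0.0676) or without replicate 16 of 3 months. At 28 months the preps gave 0.82, 1.60 and 2.43.

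In the liver Timp1 had values of 0.0318, 0.125 and 1.56 CPM at 3 months, 0.215, 0.509 and 1.97 at 24 months and 0.240, 0.602 and 2.87 at 28 months. All livers of 24 and 28 months were above the 3-month median. It rose by 1.82 ± 0.40 (adjusted p = 9.63e-05) and 1.99 ± 0.39 (adjusted p = 1.03e-05), and at 28 months by 2.15, 1.56 and 2.88 in the preps. Without the 3-month replicate 12, the highest of its age, the 24-month value was 2.56 and the 28-month value 2.72. At 3 months 5 of 15 brains and 7 of 16 livers held 3 counts or fewer. The difference between the tissues did not pass (interaction -0.47 ± 0.51, adjusted p = 0.490).

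The interaction of tissue and age from 3 to 28 months passed for 8 of the 10 genes, beside 40.6% of all genes in the joint fit. Sparc was the 1 gene that changed more upward in the brain (15.9% of all genes did). The other 7, Tnc, Vcan, Lox, Dcn, Lum, Bgn and Fn1, changed more upward in the liver (24.7%). Timp1 and Serpinh1 (-0.30 ± 0.16, adjusted p = 0.133), the 2 genes called in the same direction in both tissues, did not pass. Fitted alone, preps 1, 2 and 3 called 6, 2 and 6 of the 10, and each of the 8 kept its direction in all 3, with Fn1 at -0.015 in prep 1 and Lox passing in none alone. The median interaction was -0.76 for the 10 genes and -0.08 for all genes.

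Related genes were grouped in lists, counted here without the 10 genes and given for 28 against 3 months. The counts stand beside 16.3% of all genes higher and 12% lower in the brain, and 31.9% higher and 30% lower in the liver, and several lists lie near or below these shares. Of 11 other small leucine-rich proteoglycans measured in the brain, 1 was called higher and 4 lower, among them Aspn (-0.65 ± 0.12) and Ecm2 (-0.51 ± 0.11). Of 9 in the liver 3 were higher, such as Podn (0.73 ± 0.10) and Prelp (0.16 ± 0.07), and 4 lower, such as Tsku (-1.82 ± 0.32) and Omd (-1.09 ± 0.26). The fall of Tsku was large and its 3-month values scattered (122 ± 118 CPM). Lecticans, their link proteins and tenascins, the scaffold of the brain's hyaluronan matrix, gave 1 higher and 4 lower of 10 in the brain. There Hapln2, the link protein of myelinated fibre nodes, rose from 20.3 ± 8.48 to 38.1 ± 12.0 CPM, while the log2 fold change was -0.50 ± 0.04 for neurocan (Ncan) and -0.40 ± 0.09 for Hapln1. In the liver only 2 were tested, and Hapln4 (0.48 ± 0.15) and Tnxb (0.45 ± 0.11) were both higher.

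Among SPARC relatives and other matricellular genes, 2 of 20 were higher and 1 lower in the brain, against 11 higher and 2 lower of 16 in the liver. In the brain Smoc1 (0.30 ± 0.06) and Ccn1 (0.20 ± 0.08) rose and Thbs4 (-0.53 ± 0.14) fell. The liver genes that fell were Ccn4 (-0.72 ± 0.15) and Ccn1 (-0.52 ± 0.16), and the largest rises were those of Ccn2, the growth factor once called Ctgf (8.01 ± 4.45 to 24.4 ± 12.7 CPM), and Smoc2 (5.80 ± 1.52 to 15.9 ± 3.22 CPM). Fibronectin receptors and partners gave 4 higher and 2 lower of 19 in the brain, with Fbln5 at 0.97 ± 0.13 and Sdc4 at 0.45 ± 0.11 against Fbln2 at -0.25 ± 0.09 and Itga9 at -0.21 ± 0.08. In the liver 10 were higher and 2 lower of 19, with Itga4 at 1.84 ± 0.29 and Sdc3 at 1.14 ± 0.17 against Itga8 at -0.53 ± 0.14 and Itga5 at -0.34 ± 0.08. Itga4 is an integrin chain that leukocytes carry.

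Collagen chaperones, modifying enzymes and cross-linkers, the company of Serpinh1 and Lox, gave 2 higher and 6 lower of 27 in the brain. P4ha1 (-0.44 ± 0.08) and P4ha3 (-0.52 ± 0.08), subunits of prolyl hydroxylases, fell there as Serpinh1 did, while Pcolce2 (0.40 ± 0.14) and Fkbp10 (0.29 ± 0.06) rose. In the liver 12 were higher and 6 lower of 26, with Pcolce2 at 1.06 ± 0.19 and Fkbp10 at 0.88 ± 0.14 against Ppib at -0.40 ± 0.06 and P3h1 at -0.41 ± 0.09. Metalloproteinases and their inhibitors gave 2 higher and 7 lower of 23 in the brain, with Mmp9 at 0.39 ± 0.08 against Mmp23 at -0.64 ± 0.16 and Mmp28 at -0.45 ± 0.10. In the liver 12 of 22 were higher and 1 lower, with Mmp9 at 2.07 ± 0.26 and Mmp12 at 2.06 ± 0.44, enzymes of myeloid cells, and Mmp15 at -1.07 ± 0.11.

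Collagen chains gave 2 higher and 6 lower of 22 in the brain, with Col5a3 at 0.74 ± 0.11 and Col6a2 at 0.34 ± 0.13 against Col3a1 at -1.27 ± 0.22 and Col1a2 at -0.78 ± 0.16. In the liver 9 were higher and 4 lower of 21, with Col5a2 at 1.80 ± 0.39 and Col1a1 at 0.77 ± 0.32 against Col5a3 at -0.79 ± 0.16 and Col12a1 at -0.46 ± 0.15, so Col5a3 moved in opposite directions in the tissues. Basement membrane and elastic fibre genes gave 0 higher and 4 lower of 19 in the brain and 7 and 4 of 17 in the liver. Nid1 stood at -0.49 ± 0.13 and Fbn2 at -0.39 ± 0.09 in the brain. In the liver Emilin2 rose from 3.65 ± 1.41 to 14.1 ± 7.82 CPM and Nid1 stood at 0.75 ± 0.12, against Lama3 at -2.01 ± 0.24 and Nid2 at -0.40 ± 0.12. TGF-beta ligands, receptors and mediators gave 4 and 4 of 23 in the brain, with Tgif1 (0.37 ± 0.10) and Acvrl1 (0.30 ± 0.08) against Bambi (-0.40 ± 0.12) and Skil (-0.22 ± 0.08). In the liver 11 were higher and 0 lower of 23, with Ltbp2 at 1.19 ± 0.27 and Acvrl1 at 0.91 ± 0.16.

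**Figure D4:**
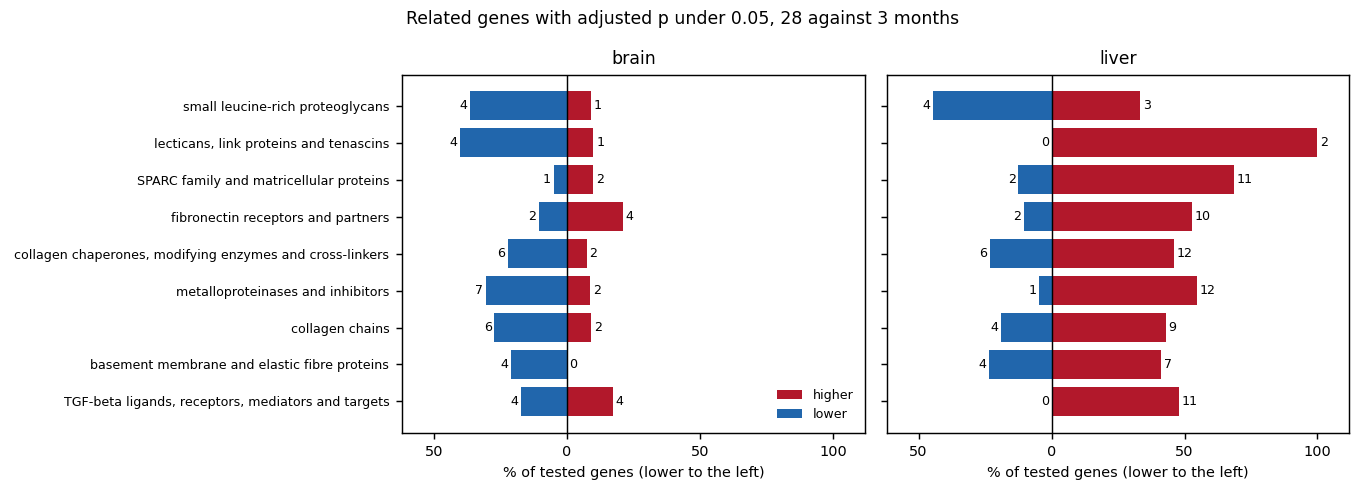
Share of the tested genes of each related list, without the 10 matrix genes, that were called higher (red, to the right) or lower (blue, to the left) at 28 against 3 months, with the number of genes at the end of each bar. Liver bars extend mostly to the right, up to 2 of 2 for lecticans and tenascins, while brain bars extend mostly to the left.

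Bulk samples do not tell apart fewer cells of a type from less RNA per cell, so marker genes are given beside these changes. At 28 against 3 months 16.3% of all brain genes were called higher and 12% lower. The liver shares were 31.9% and 30%, and some marker lists lie near these shares. In the brain 3 of 11 markers of fibroblasts and meninges were called lower, and their summed level ran from 73.0 to 148 CPM at 3 months (median 104) and from 62.0 to 135 CPM at 28 months (median 84.7). Choroid plexus markers, of which none of 8 was called, summed to between 52.2 and 6581 CPM among 3-month brains. Of 6 astrocyte markers tested 2 were higher and 2 lower, of 9 endothelial markers 1 was higher and 4 lower, and all 6 microglial and macrophage markers tested were higher. Of 7 markers of oligodendrocyte precursors 2 were lower, with a median sum of 238 CPM at 3 months and 187 CPM at 28 months. Of 5 red blood cell markers 3 were higher, with median sums of 75.3 and 128.6 CPM. Both pituitary markers tested were lower (median log2 fold change -4.00), where the sum of the list had a median of 1.18 CPM and a highest value of 655.6 CPM at 3 months, and 1.14 and 9.99 CPM at 28 months. In the liver 7 of 11 stellate cell markers and 5 of 9 markers of portal fibroblasts and mesothelium were higher, and none of either was lower. Stellate cell markers summed to 282 to 391 CPM at 3 months (median 345) and to a median of 416 CPM at 28 months. Of 10 endothelial markers 2 were higher and 4 lower, of 7 markers of pericytes and smooth muscle 3 were higher and of 4 cholangiocyte markers 2, with none lower in either list. Of 5 red blood cell markers 3 were higher and 1 lower. Of 5 hepatocyte markers 1 was lower and none higher. Of 10 macrophage markers 9 were higher, and their sum had a median of 441 CPM at 3 months (351 to 1285) and of 1093 CPM at 28 months (556 to 4628). Of 7 markers of B, plasma and T cells 6 were higher (the median log2 fold change was 2.88), and their sum had a median of 9.67 CPM at 3 months (7.33 to 29.8) and of 34.6 CPM at 28 months (15.7 to 210.2). The part of cell composition in the changes of the 10 genes was not tested.

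Whether a mouse with a high level of a gene in the brain also had a high level in the liver was asked over 82 mice, on residuals from the age and prep means. With all mice Serpinh1 had the highest Pearson's r, 0.315 (Spearman's rho 0.337), with a permutation p of 0.00746 and an adjusted p of 0.0746 over 10 genes. Adjusted over the 10 rank correlations, Serpinh1 reached 0.0296. Its r was 0.279 without the 2 mice whose brain residual lay farthest from the median, a choice that did not use the liver values. In the preps it was 0.419, 0.415 and 0.0117. The lowest r was that of Sparc, -0.263 (rho -0.239, permutation p = 0.0416, adjusted p = 0.208). None of the 10 passed by Pearson's r, and for the other 8 it lay between -0.145 and 0.160. Timp1, at 0.160, reached 0.319 without its 2 farthest mice, again chosen by the brain residual alone. That was above Serpinh1, and it then passed (permutation test, adjusted p = 0.031).

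Within a tissue, all 45 pairs of the genes were correlated over libraries in the same way, 90 pairs in all. In the liver 31 pairs passed (permutation test, adjusted p under 0.05), 30 of them positive, with a median r of 0.44 over the 45 pairs. In the brain 19 passed, 12 positive and 7 negative, with a median r of 0.15. By ranks (Spearman's rho) 31 passed in the liver, 28 positive and 3 negative, and 13 in the brain, 11 positive and 2 negative, so most negative brain pairs did not pass by ranks. The 2 that did were Sparc with Vcan and Serpinh1 with Vcan. The strongest liver pairs were Sparc with Bgn (r = 0.755, rho = 0.700), Sparc with Tnc (r = 0.681, rho = 0.582) and Vcan with Timp1 (r = 0.676, rho = 0.563). Without the 2 libraries farthest from the median for the first-named gene, r was 0.746, 0.627 and 0.596. The other gene of a pair was not used in that choice. For each of these 3 pairs the adjusted p was 4.74e-05, which follows from the smallest p the permutations can give. Sparc and Bgn correlated at 0.680, 0.811 and 0.778 in the preps. Dcn passed with Lum alone (r = 0.309), and not by ranks (rho = 0.245, permutation test, adjusted p = 0.0645). Fn1 passed with Vcan (0.439) and, negatively, with Bgn (-0.337), and by ranks also negatively with Sparc (rho = -0.277) and Serpinh1 (rho = -0.280).

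In the brain the strongest pair was that of the genomic neighbours Dcn and Lum (r = 0.690, rho = 0.659, permutation test, adjusted p = 4.74e-05). Its r was 0.649 without the 2 libraries farthest for Dcn and 0.551, 0.781 and 0.695 in the preps. Lum with Lox was next (r = 0.608, rho = 0.448, permutation test, adjusted p = 4.74e-05). Without the 2 libraries farthest for Lum its r was 0.491. In the preps it was 0.0388, 0.620 and 0.873, so it was near 0 in prep 1. Fn1 with Vcan stood at 0.589 (rho = 0.201) and Serpinh1 with Bgn at 0.547 (rho = 0.449). Without the 2 brains that stand apart, an omission chosen after seeing the data, 14 brain pairs passed, 12 positive and 2 negative. Dcn with Lum was then 0.684, Serpinh1 with Bgn 0.518 and Lum with Lox 0.481. Bgn with Lox moved from 0.337 to 0.682 (permutation test, adjusted p = 0.000333), level with Dcn and Lum. Pairs that passed by Pearson's r without these brains but not with them were Fn1 with Bgn (from 0.135 to 0.470), Serpinh1 with Lox (0.264 to 0.468), Bgn with Lum (0.190 to 0.415), Sparc with Dcn (0.180 to 0.378), Serpinh1 with Lum (0.181 to 0.316), Lum with Timp1 (-0.0399 to 0.272) and Vcan with Lox (0.285 to -0.231). Fn1 with Vcan was 0.121 without these brains, Sparc with Vcan moved from -0.542 to -0.199 and Vcan with Timp1 from -0.497 to -0.0907, and these 3 pairs no longer passed. Nor did 9 others of the 19, Sparc with Fn1 (-0.365 to 0.00179), Timp1 (0.472 to 0.223) and Lox (-0.393 to -0.110), Fn1 with Lox (0.495 to 0.271), Timp1 (-0.392 to -0.0525), Lum (0.313 to 0.0642) and Dcn (0.252 to 0.168), Vcan with Bgn (-0.352 to -0.216) and Serpinh1 with Timp1 (0.299 to 0.227), so 7 of the 19 still passed.

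**Figure D5:**
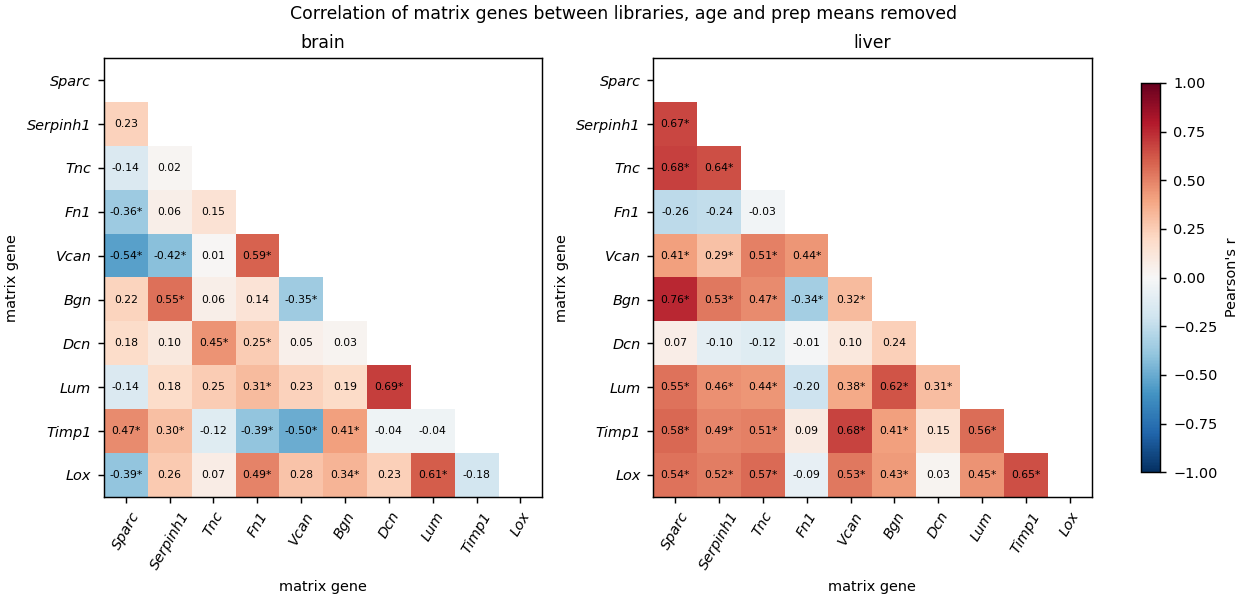
Pearson's r between each pair of matrix genes over libraries, after removing age and prep means, in brain (left, 82 libraries) and liver (right, 83 libraries), with an asterisk where the adjusted permutation p is under 0.05. Liver values are mostly positive (30 of 31 that pass), while the brain holds both signs (7 of 19 negative by r, 2 of 13 by ranks).

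For those of the 10 whose mean in a tissue reached 1 CPM (all but Timp1 and Lox, and not Vcan in the liver), the genes whose level followed theirs most closely over the same libraries, among genes at that level, are given as a description. The libraries share depth and preparation, so no test is attached. In the liver Col3a1 led for both Tnc (r = 0.842) and Sparc (r = 0.838), and Col1a1 (0.811) and Col1a2 (0.803) followed for Tnc. Fn1 was nearest to Lrp1 (0.860) and Pzp (0.824), Bgn to Slc31a2 (0.766), Serpinh1 to Gpr153 (0.730), Lum to Ccdc80 (0.723) and Dcn to Tmem47 (0.669). In the brain Dcn was nearest to Nr2f2 (0.932), Fn1 to Adgrf5 (0.886), Abcb1a (0.880) and Ptprb (0.867), all expressed in endothelium, and Sparc to Scrg1 (0.853) and Agt (0.846), the latter an astrocyte gene. Vcan was nearest to Anapc1 (0.911), Bgn to Cavin1 (0.812), Serpinh1 to Tcn2 (0.788), Lum to Ecm2 (0.731) and Tnc to Slc1a4 (0.697). These brain values include the 2 brains that stand apart and were not computed without them. Among the 10 genes, leaving these brains out moved Fn1 with Vcan from 0.589 to 0.121, but Dcn with Lum only from 0.690 to 0.684.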

How the data were processed

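Polyadenylated RNA was sequenced as paired reads of 100 bases from stranded TruSeq libraries of brain and liver, per the labels' protocols. The authors deposited 1 table of raw, whole-number counts for each tissue, with 55471 Ensembl identifiers. The submitters' processing notes name cutadapt 2.8, HISAT2 2.1.0, SAMtools 1.9, featureCounts in Subread 2.0.1 and GRCm38.p6. The counting's strand setting and annotation are not given in the sources used here. Symbols matched 55144 identifiers and exon lengths, used only for TPM, came from GENCODE M21 for 55230. No column was unused (0 columns).

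Each tissue was fitted with edgeR 4.0.16 in R 4.3.3 (filterByExpr by age, TMM, quasi-likelihood test, two-sided), with age and prep as terms over all its libraries. Benjamini-Hochberg adjustment ran over all genes tested, and a gene was called where its adjusted p was below 0.05. All 10 genes passed the filter in both tissues. Each standard error is the size of the log2 value over the square root of its F. A joint fit of both tissues gave the interaction and, averaged over preps, the tissue difference at 3 months. Genes of each list with a mean of at least 1 CPM were named where they were among the 2 highest or 2 lowest called changes. Likeness was ranked by Pearson's r of log2 CPM (prior count 2) after removing age and prep means. Correlations between tissues and between genes used the same residuals and 100000 permutations within age. Their alternatives drew fewer permutations. For gene pairs without the 2 least similar libraries of a tissue the smallest p was 0.0001 (permutation test), and the adjusted p of 0.000333 follows from it.

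The members and lists were chosen with earlier results of these data known, so no count over them is independent evidence. Per the labels, a brain and a liver library of 1 age that share a number are from 1 mouse. Over 11412 genes the deviations of such pairs correlated at a median of 0.0602, against -0.00566 for other pairs of the same age, and the mouse was used as a block in an alternative. The scripts' tests were checked on simulated data with a spread set by formula, no prep effect and no library that stood apart. That check therefore does not cover libraries such as those that stand apart here. DESeq2 1.42.0, limma 3.58.1, other filters and scalings, each prep alone and the omission of each library were tried as alternatives. Leaving out a library kept the trended spread and the filter of the full table. P-values treat mice as replicates. Library depth limits the precision of Timp1, Lox and liver Vcan, which held 3 counts or fewer in some libraries, a floor that covers counting error only.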

Additional observations from a re-analysis of the deposited data

Results flagged for a closer look

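For 8 of the 10 genes the change from 3 to 28 months differed between brain and liver in the joint fit. The interaction test (edgeR) was adjusted over 20328 genes, of which 40.6% passed, 24.7% lower in the brain and 15.9% higher. Values of the 8 genes are given as log2 differences, brain minus liver. Sparc was the only one above 0, at 0.64. Tnc stood at -2.11 and Vcan at -2.76. The collagen cross-linker Lox stood at -1.27. The 3 small leucine-rich proteoglycans stood at -1.06 (Dcn), -0.96 (Lum) and -0.56 (Bgn). Fn1 stood at -0.42. The formal test for 1 outlying library, meant for groups of up to 10, was not run, since each group held 15 to 18 libraries.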

How the results depend on the processing

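Counts of the genes called at 28 or 24 against 3 months stayed within 1.5 times of the reported ones in both tissues under other scalings, filters, tests, spread estimates and omissions, except in a prep alone. Prep 1 alone called 1 gene at 24 months in the brain, 4 and 5 at 24 and 28 months in the liver. Prep 2 alone called 0 and 3 in the brain and 2 and 1 in the liver, and 2 in the interaction of tissue and age. Prep 3 alone called 0 and 3 in the brain. At 9 and 15 against 3 months and 28 against 24 months in the brain, and at 15 against 3 months in the liver, each prep alone called 0, as did preps 2 and 3 at 28 against 24 months in the liver. From 15 to 24 months in the liver the preps called 0, 4 and 3. Over all brain ages together preps 2 and 3 called 1 and 2. A prep holds fewer libraries. In the brain limma voom called 2 and 3 of the 10 at 9 and 15 against 3 months. Of all genes it called 442 and 822 there, against 59 and 163 with edgeR. At 24 against 15 and 28 against 24 months it called 1 and 2, and 848 and 899 of all genes, against 137 and 204. In the liver it called 1, 2 and 4 of the 10 at 9 and 15 against 3 and 28 against 24 months. Of all liver genes it called 316, 967 and 4157, against 731, 1140 and 2385. For 28 against 24 months in the brain DESeq2 called 3, no filter 0, the 2 ages alone 0 and the fit without the 2 least similar libraries 2. Of all brain genes these called 425, 105, 2 and 669, against 204. In the liver a mean of at least 1 CPM gave 2 there, and leaving out the livers highest for most genes gave 2 or 3 (chosen after seeing the data). Leaving out single libraries gave 0 to 1 at 9 against 3 months and 0 to 2 at 28 against 24 months in the brain, and 1 to 2 at 28 against 24 months in the liver. Other causes were not tested. The 2 brains that stand apart changed the background. Without them 3193 brain genes were called at 24 against 3 months, against 1882 with them, 669 against 204 from 24 to 28 months, 176 against 59 at 9 and 350 against 163 at 15 against 3 months, with the same genes of the 10 called at 9, 15 and 24 months.

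Values that changed sign were all uncalled. Among 140 values left-out libraries changed the sign of 24, the largest moves being those of liver Vcan at 9 and 15 against 3 months (-0.61 and -0.026), which became 0.451 and 1.07 without replicate 12 of 3 months. Liver Tnc at 28 against 24 months (0.003) became -0.21 without replicate 14 of 28 months. Under the other alternatives they were brain Fn1 at 24 and 28 months in prep 1 (-0.011 and 0.03) and at 28 months in prep 2 (0.058), brain Bgn at 24 months in preps 2 and 3 (0.035 and 0.072) and at 28 months in prep 3 (0.056), and at 24 months brain Dcn (0.043 and 0.056) and Lum (0.18 and 0.094) in preps 2 and 3 and Lox in prep 2 (0.24). In the liver they were Sparc at 24 months with voom (-0.075) and Serpinh1 in prep 3 (-0.094), and the Timp1 interaction in prep 2 was 0.017.

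The replicate number pairs no mice across ages. As a replicate block across ages it kept the counts at 5 and 9 genes at 28 months and gave 6 in place of 7 at 24 months in the liver, where Fn1 was lost (0.24, adjusted p = 0.06). Same-numbered libraries of different ages correlated at a median of 0.0272 (brain) and 0.00639 (liver). With the mouse as a replicate block the interaction of tissue and age called the same 8 genes, Fn1 at -0.45 (adjusted p = 0.0296) and Lox at -0.995 (adjusted p = 0.0456) among them. Between brain and liver of a mouse, 1 gene passed without the 2 farthest mice (Timp1) and 1 in prep 1 (Lum, r = -0.584), against 0. Of the gene pairs, preps 1, 2 and 3 alone gave 2, 9 and 7 in the brain, against 19, and preps 1 and 3 gave 4 and 9 in the liver, against 31.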
